A study of Rattus norvegicus with 14 samples.

Results

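Cyp11a1, Cyp17a1, Hsd3b1, Star, Fdx1, Cyb5a, Scarb1 and Insl3 are 8 genes through which the Leydig cell of the fetal testis makes its hormones, and they are described here over fetal gonads of the rat. All probe sets that the platform annotation gives 1 of these 8 symbols were taken, a probe set being a group of short probes for 1 transcript. This gave 11 of the 15866 probe sets analysed: 2 each for Star, Scarb1 and Fdx1 and 1 for each of the others. A further 1 probe set carries Hsd3b1 among several symbols and is given apart. The study measured 14 single-colour Affymetrix rat arrays, 2 for each of 7 groups, to follow the gonad as it becomes a testis or an ovary. The groups were testes taken at embryonic day 13 (E13) and cultured for 3 days, fresh testes at E13, E14 and E16, and fresh ovaries at E13, E14 and E16. Each array held RNA of 1 pool of 20 to 40 gonads, and the 2 pools of a group were independent, per the labels. The cultured testes were kept on filters over CMRL 1066 medium with insulin, transferrin and serum albumin. No hormone other than insulin is named in the labels. The strain is not given in the sources used here, and all tissues were whole gonads, in which fewer cells of a type and less RNA per cell cannot be told apart.

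Fetal Leydig cells lie between the testis cords and turn cholesterol into androgens, which masculinise the male fetus. Cholesterol is taken up from lipoproteins through the receptor encoded by Scarb1 and is carried into the mitochondrion with the help of the Star protein, where Cyp11a1, fed with electrons by the ferredoxin Fdx1, cuts its side chain to give pregnenolone. The 3-beta-hydroxysteroid dehydrogenases then make progesterone, Cyp17a1 with its helper cytochrome b5 (Cyb5a) makes androgens, and the same cells release Insl3, the peptide that guides the testis in its descent. The fetal ovary of rodents makes little steroid hormone at these ages.

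All arrays were on a common scale, with medians between 59.5 and 69.1 intensity units, and Pearson's r between both arrays of one group was 0.949 to 0.982 over all probe sets. Some arrays stood apart. Xist, which is made in cells with 2 X chromosomes, read 36.2 in E13 testis replicate 1, 269 in E14 testis replicate 1 and 151 in cultured testis replicate 1, against at most 4.8 in the other testis arrays. In E16 ovary replicate 2 it read 12.8, against 152 to 672 in the other ovary arrays. Sry, the Y-linked testis-determining gene, read 163 in E13 testis replicate 1 and 45.9 in E14 testis replicate 1, above the 13.1 to 28.7 of the ovary arrays. It read 13.4 in cultured testis replicate 1 and 25.8 in E16 ovary replicate 2, but the other cultured and E16 testis arrays, at 18.5 to 28.2, also lay within the ovary range. Whether these 4 pools held gonads of the other sex or were exchanged is unknown, so that their values stand for the labelled sex only as far as the labels hold. Actin signal from the 3′ end relative to that from the 5′ end, a sign of RNA quality that is higher in degraded RNA, was 2.97 in cultured testis replicate 2 and 3.34 in E16 ovary replicate 1, against 1.47 to 2.13 elsewhere. Counts without these arrays are given where they differ from those of all 14 arrays, and in those fits a group left with a lone array is taken to vary like the others.

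RefSeq's table of promoters (rat assembly GRCr8, 250 bases before to 50 after the annotated start) held 5 of the 8 genes. They are Cyp11a1 (chr8:67318415-67318714, plus strand), Fdx1 (chr8:61183596-61183895, minus strand), Hsd3b1 (chr2:188864645-188864944, minus strand), Insl3 (chr16:18432939-18433238, plus strand) and Cyb5a. Cyp17a1, Star and Scarb1 were not among the entries. The windows of 4 of these genes are shown because their array values move together below, and that of Hsd3b2 (chr2:188794020-188794319, minus strand) because the Hsd3b1 probe set may report it. Each is written 5′ to 3′ on the strand of its gene, and capitals mark the motif matches described next.
Cyp11a1: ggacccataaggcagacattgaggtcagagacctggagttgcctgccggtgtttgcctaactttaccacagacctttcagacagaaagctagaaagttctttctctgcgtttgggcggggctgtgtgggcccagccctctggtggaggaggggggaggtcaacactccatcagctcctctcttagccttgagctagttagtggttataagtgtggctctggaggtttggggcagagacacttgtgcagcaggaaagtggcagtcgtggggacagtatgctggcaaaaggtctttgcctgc
Fdx1: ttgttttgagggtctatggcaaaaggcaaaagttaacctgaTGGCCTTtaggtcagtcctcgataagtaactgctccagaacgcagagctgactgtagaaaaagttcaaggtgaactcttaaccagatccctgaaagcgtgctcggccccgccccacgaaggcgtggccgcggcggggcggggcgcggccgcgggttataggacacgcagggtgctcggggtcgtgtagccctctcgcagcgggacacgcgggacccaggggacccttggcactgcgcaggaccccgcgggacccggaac
Hsd3b1: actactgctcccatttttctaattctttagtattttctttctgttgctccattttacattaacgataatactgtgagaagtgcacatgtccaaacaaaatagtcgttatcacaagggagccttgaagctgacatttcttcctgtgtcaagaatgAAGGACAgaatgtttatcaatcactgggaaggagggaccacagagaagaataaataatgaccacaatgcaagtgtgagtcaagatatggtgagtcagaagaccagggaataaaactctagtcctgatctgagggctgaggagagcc
Hsd3b2: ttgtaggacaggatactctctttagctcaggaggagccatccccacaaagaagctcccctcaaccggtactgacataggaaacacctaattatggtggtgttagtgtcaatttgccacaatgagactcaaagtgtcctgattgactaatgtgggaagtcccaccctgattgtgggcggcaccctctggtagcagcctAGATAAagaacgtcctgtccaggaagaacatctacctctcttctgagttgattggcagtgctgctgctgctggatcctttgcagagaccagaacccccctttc
Insl3: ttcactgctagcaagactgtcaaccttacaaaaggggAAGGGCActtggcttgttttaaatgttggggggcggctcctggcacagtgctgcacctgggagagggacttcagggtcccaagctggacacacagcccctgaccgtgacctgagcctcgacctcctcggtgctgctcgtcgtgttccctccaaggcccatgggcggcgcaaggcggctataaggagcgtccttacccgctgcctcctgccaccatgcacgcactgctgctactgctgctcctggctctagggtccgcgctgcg

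Steroidogenic factor 1 (SF-1, the product of Nr5a1) is the nuclear receptor best known for driving these genes. Its site AAGGTCA was in 0 of the 5 windows on either strand, and in 4.61% of 33469 rat promoter windows of the same length. With the fifth letter left free, AAGGNCA, which includes the first form, matched in 3 of 5 windows and in 20.3% of all. The matches were AAGGACA 96 bases before the start of Hsd3b1, TGGCCTT (the opposite strand) 209 bases before that of Fdx1, and AAGGGCA 213 bases before that of Insl3. The GATA site in the spelling AGATAA was in 0 of the 5 windows, and in 11.6% of all windows. Other spellings of a GATA site, such as TGATAA, were not searched, so these windows are not shown to lack such sites. The cAMP response half-site TGACG was likewise in 0 of 5, and in 21.2% of all. The TATA box as TATAAA was in 0 of 5, and in 14.2% of all. Apart from the 2 forms of the SF-1 site, no motif contains another. Hsd3b2 had AGATAA 53 bases before its start. These are matches of letters within a short window, not sites of binding.

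At E16 the testis stood apart from the ovary in most of the 8 genes. Of the 8 genes, 7 were higher in E16 testis than in E16 ovary, by log2 differences of 1.86 (Fdx1) to 6.51 (Hsd3b1), and 1.01% of all probe sets passed in that direction. The exception was Cyb5a, at a log2 difference of 0.59 (SE 0.19, adjusted p = 0.191). All differences are of log2(intensity + 16) from limma fitted to the 15866 probe sets over the 14 arrays, with adjusted p under 0.05 taken as passing. The added 16 makes the difference smaller for dim genes, so that the fold is understated for them. The median of the 8 log2 differences was 3.31, beside 0.05 over all probe sets. In 8 of 8 genes both testis arrays lay above both ovary arrays, as did 25.6% of all probe sets. Without the 4 arrays with discordant Xist 3 of 8 passed (Cyp11a1, Hsd3b1 and Cyp17a1), and without the 2 arrays with a high actin ratio 6 of 8 (Scarb1 lost).

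In 11 of 11 probe sets the 4 arrays of E16 testis and cultured E13 testis all lay above the other 10 arrays, a pattern shown by 1.34% of all probe sets. The values of the single arrays are set out below in the order of the pathway.

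**Figure D1:**
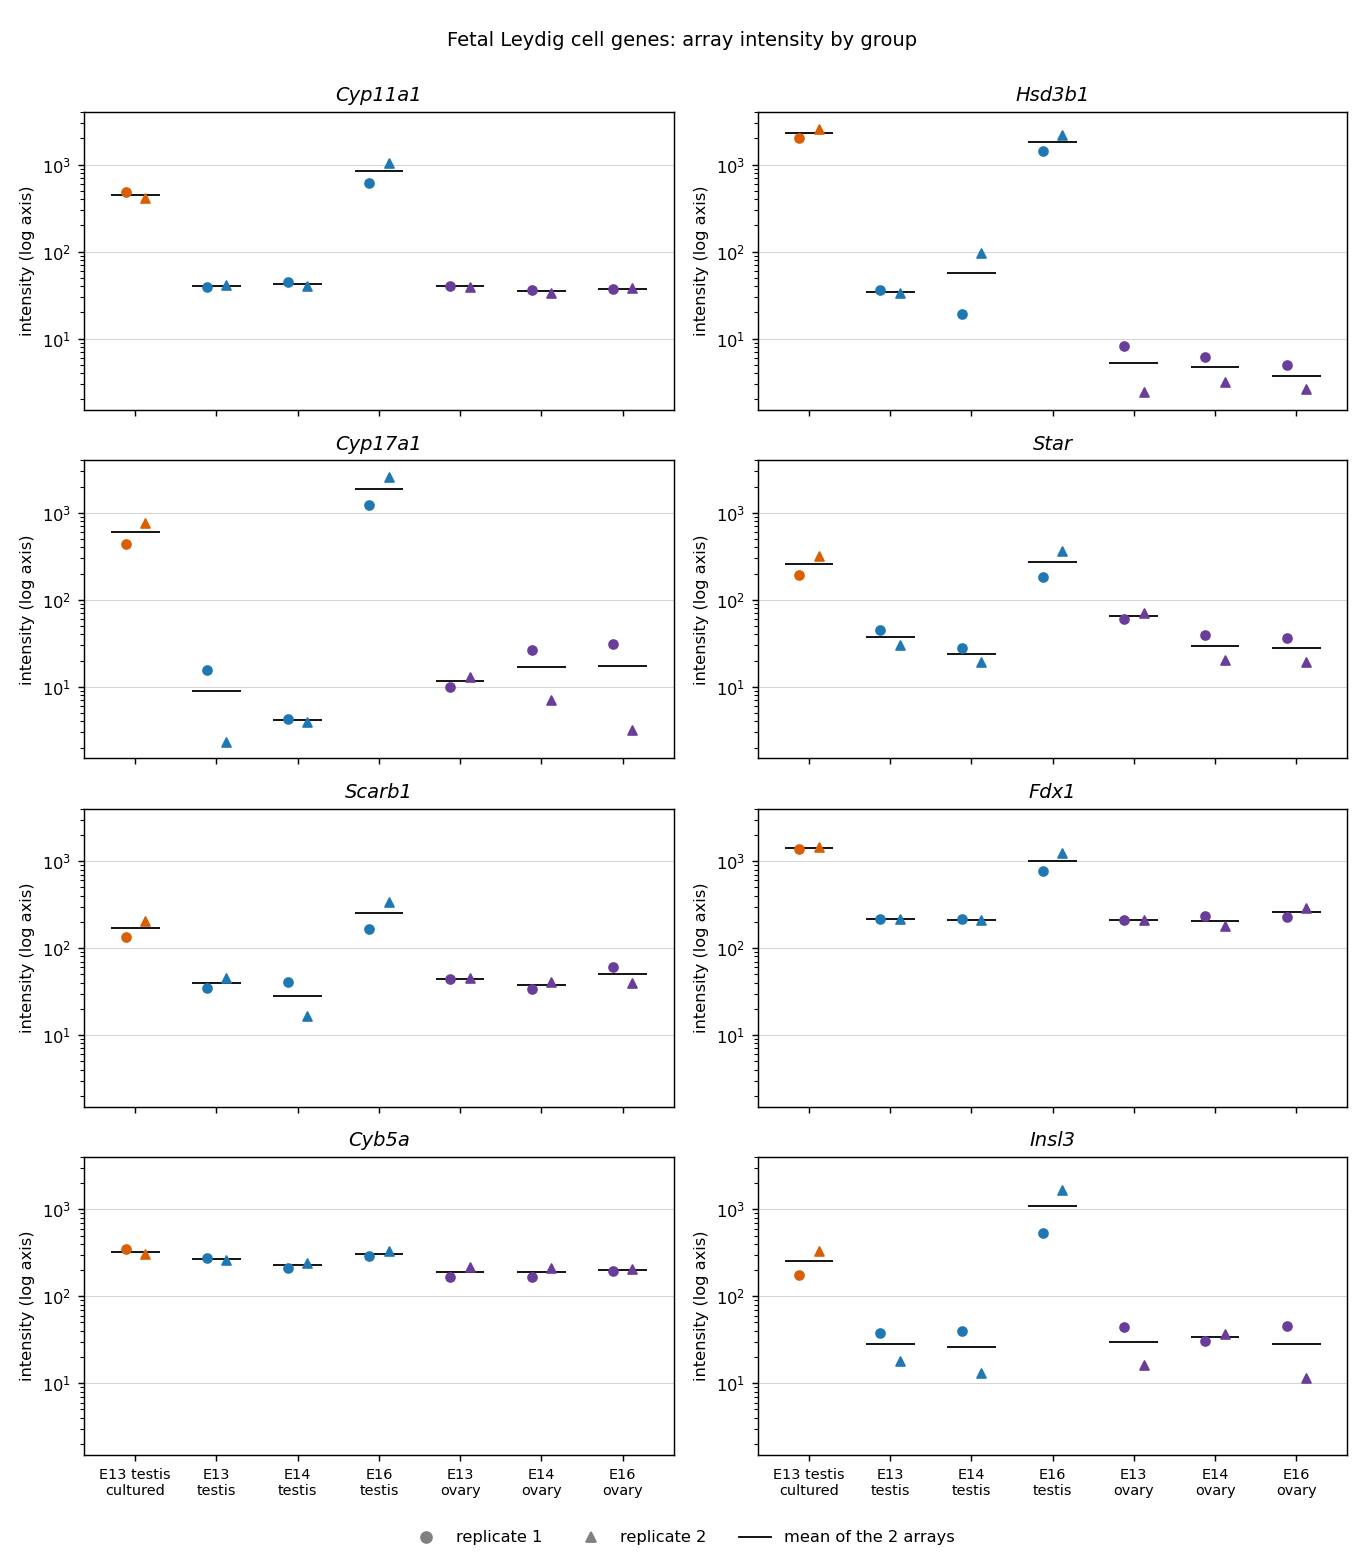
Intensity of the 8 genes (brightest probe set of each, log axis) in the 7 groups; circles are replicate 1, triangles replicate 2, and lines the mean of the 2 arrays. The cultured E13 testis and the E16 testis arrays lie above all others in every panel, widely for Hsd3b1, Cyp17a1 and Cyp11a1 and narrowly for Cyb5a.

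Scarb1, the receptor that takes cholesterol esters from high-density lipoprotein, was among the genes with a smaller difference. Its brighter probe set read 134 and 204 in cultured E13 testis, 34.8 and 45.4 in fresh testis at E13, 40.2 and 16.5 at E14, and 164 and 342 at E16. In ovary it read 43.8 and 45.2 at E13, 33.9 and 40.7 at E14, and 60.2 and 39.7 at E16. The 4 arrays of cultured and E16 testis lay above the rest, and replicate 2 of E16 testis read 2.09 times replicate 1. The log2 difference was 1.96 between E16 testis and E16 ovary (SE 0.35, adjusted p = 0.0164) and 2.18 between E16 and E13 testis (adjusted p = 0.0135). The second Scarb1 probe set read 130 and 322 in E16 testis and 52.1 and 81.8 in E16 ovary, a log2 difference of 1.44 that did not pass (SE 0.34, adjusted p = 0.0604). It passed between E16 and E13 testis, where it read 12.9 and 22.4 at E13 (log2 difference 2.74, adjusted p = 0.00388). It missed between E16 and E14 testis (1.97, adjusted p = 0.0793) and between cultured E13 and fresh E14 testis (1.64, adjusted p = 0.0969). The Scarb1 calls in these comparisons and between the sexes were thus made with the brighter probe set only.

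Star, whose protein sets the pace of acute steroid output, had 2 probe sets that passed alike. The brighter one read 192 and 321 in cultured E13 testis, 45.0 and 30.3 in fresh testis at E13, 28.1 and 19.5 at E14, and 183 and 365 at E16. In ovary it read 60.8 and 70.9 at E13, 39.1 and 20.4 at E14, and 36.1 and 19.3 at E16. Apart from cultured and E16 testis, the highest values were those of E13 ovary. The log2 difference between E16 testis and E16 ovary was 2.68 (SE 0.35, adjusted p = 0.00371), and 3.28 for the second probe set (SE 0.32, adjusted p = 0.000825). E16 testis exceeded E13 testis by 2.37 (adjusted p = 0.0109) and by 2.38 with the second probe set (adjusted p = 0.00615).

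Cyp11a1, which carries out the first and rate-limiting enzymatic step, had a flat low level in 10 arrays and a high one in 4. It read 488 and 408 in cultured E13 testis, 39.5 and 41.1 in fresh testis at E13, 45.0 and 39.8 at E14, and 615 and 1051 at E16. The 6 ovary arrays read between 33.5 and 40.5. Over the 10 low arrays the whole range was 33.5 to 45.0, and E14 testis overlapped E13 testis. The log2 difference was 3.94 between E16 testis and E16 ovary (SE 0.22, adjusted p = 2.56e-05), a 15.3-fold difference on the offset scale. It was 3.87 between E16 and E13 testis (SE 0.22, adjusted p = 3.14e-05) and 3.81 between E16 and E14 testis (adjusted p = 3.62e-05).

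Fdx1, the ferredoxin that hands electrons to Cyp11a1, was well above the array median in all groups. It read 1394 and 1456 in cultured E13 testis, 216 and 217 in fresh testis at E13, 214 and 208 at E14, and 766 and 1240.1 at E16. In ovary it read 209.6 and 212 at E13, 232 and 177 at E14, and 228 and 288 at E16. The cultured testes were the highest group for Fdx1, and its low arrays were close to each other in both sexes. The log2 difference between E16 testis and E16 ovary was 1.86 (SE 0.23, adjusted p = 0.00299). The second Fdx1 probe set was dim, with 77.2 and 59.8 in cultured testis, 13 and 35.9 in E16 testis, and at most 3.9 in the other arrays. It passed between E16 testis and E16 ovary (log2 difference 1.13, adjusted p = 0.0449). It did not pass between E16 and E13 testis (log2 difference 1.05, adjusted p = 0.0846) or between E16 and E14 testis (1.09, adjusted p = 0.273).

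Hsd3b1, named for the enzyme that turns pregnenolone into progesterone, was dimmest in ovary and brightest in cultured and E16 testis. It read 2032 and 2543 in cultured E13 testis, 36.1 and 33.0 in fresh testis at E13, 19.2 and 95.6 at E14, and 1432 and 2202.5 at E16. The ovary arrays read 8.2 and 2.4 at E13, 6.1 and 3.2 at E14, and 4.9 and 2.6 at E16. Every testis array, at every age, read above every ovary array, which was so of no other of the 8 genes. The log2 difference at E16 was 6.51 (SE 0.42, adjusted p = 2.9e-05), and E16 testis exceeded E13 testis by 5.15 (SE 0.42, adjusted p = 0.000317). The name of this probe set is uncertain: its gene identifier stands for Hsd3b1, while the transcript it was designed on belongs to Hsd3b2 in the current RefSeq table. The promoter window of Hsd3b1 was identical to that of Hsd3b3 at 299 of 300 positions, and to that of Hsd3b2, printed above, at 67 position by position, or at 150 of 335 columns when gaps were allowed. The probe set that carries the symbols Hsd3b3, Hsd3b1 and Hsd3b2 together showed none of this, with 73.8 and 47.7 in E16 testis and 92.5 and 85.5 in E16 ovary (log2 difference -0.47, adjusted p = 0.393).

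Cyp17a1, the enzyme that commits the pathway to androgens, was dim in all arrays but those of cultured and E16 testis. It read 438 and 773 in cultured E13 testis, 15.5 and 2.3 in fresh testis at E13, 4.3 and 3.9 at E14, and 1232 and 2566 at E16. The ovary arrays read 9.9 and 13.1 at E13, 26.8 and 7.1 at E14, and 31.1 and 3.2 at E16. Apart from cultured and E16 testis no array read above 31.1, and fresh testis overlapped ovary at E13 and read below it at E14. The log2 difference was 6.22 between E16 and E13 testis (SE 0.49, adjusted p = 0.000317), 6.48 between E16 and E14 testis (adjusted p = 0.00018) and 5.90 between E16 testis and E16 ovary (adjusted p = 0.000207).

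Cyb5a encodes cytochrome b5, which speeds the lyase reaction of Cyp17a1 and also serves other microsomal enzymes in many tissues. It read 346 and 303 in cultured E13 testis, 276 and 258 in fresh testis at E13, 210.4 and 243 at E14, and 289.6 and 331.5 at E16. In ovary it read 166.5 and 218 at E13, 168 and 213 at E14, and 195 and 206 at E16. Of the 13 comparisons run, 0 passed for Cyb5a by limma (4 at an unadjusted p under 0.05). Testis arrays lay above ovary arrays at E13 and at E16 and overlapped at E14.

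Insl3, the peptide hormone of Leydig cells, varied more between the E16 testis replicates than the other 7 genes. It read 175 and 336 in cultured E13 testis, 37.8 and 18.1 in fresh testis at E13, 39.7 and 13.2 at E14, and 540.0 and 1659 at E16. The ovary arrays read 44.1 and 16.1 at E13, 31.0 and 36.9 at E14, and 45.2 and 11.6 at E16. The E16 testis values were above the cultured ones, and the rest formed 1 low range in both sexes. The log2 difference was 4.55 between E16 testis and E16 ovary (SE 0.57, adjusted p = 0.00312) and 4.49 between E16 and E13 testis (SE 0.57, adjusted p = 0.00449).

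**Figure D2:**
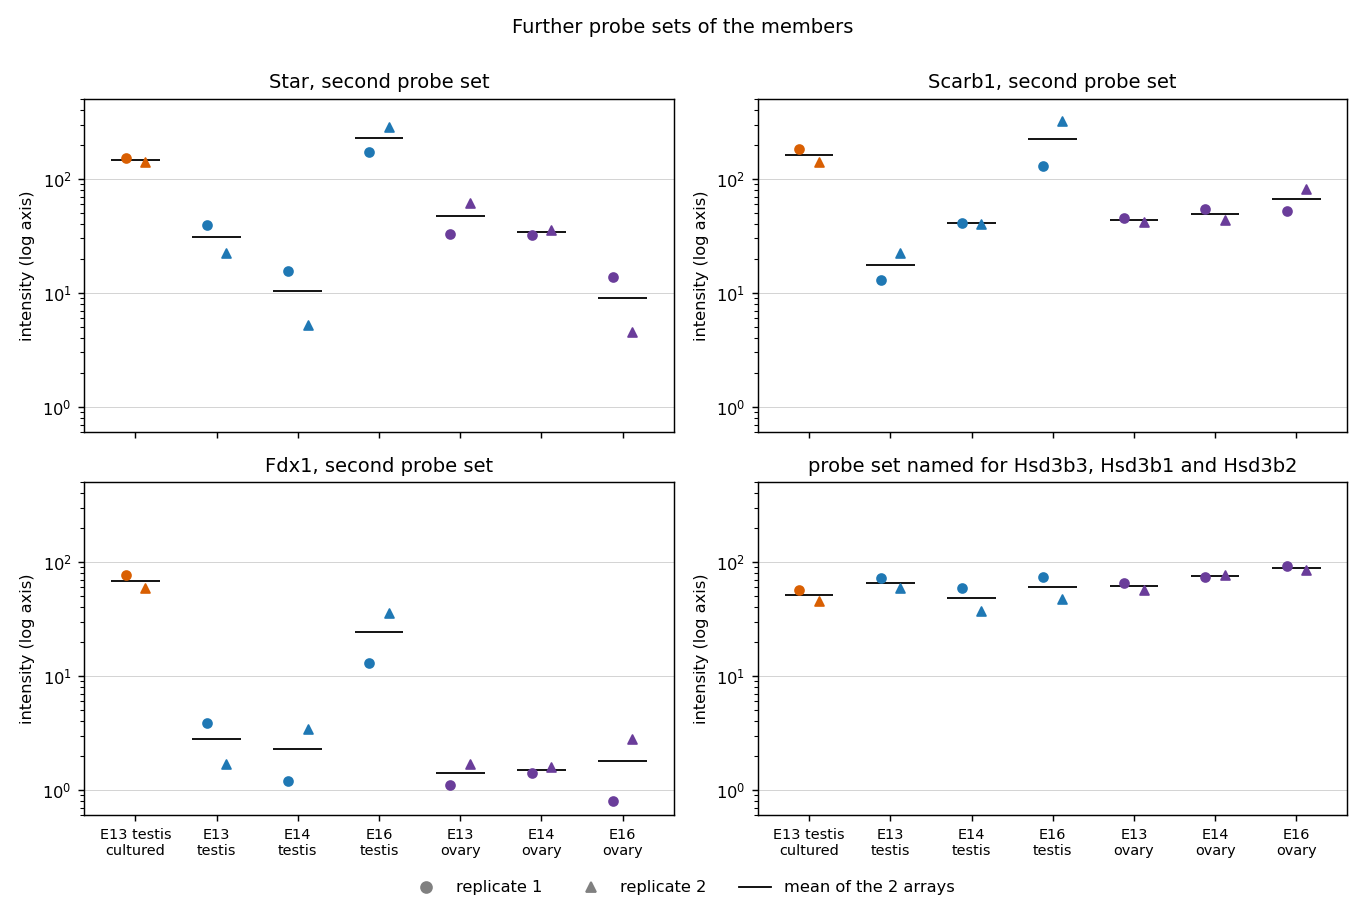
Intensity (log axis) of the second probe sets of Star, Scarb1 and Fdx1 and of the probe set shared by Hsd3b3, Hsd3b1 and Hsd3b2, in the 7 groups; circles are replicate 1, triangles replicate 2, lines the mean of the 2 arrays. The Star, Scarb1 and Fdx1 sets are highest in cultured E13 and E16 testis, while the shared Hsd3b set stays between 37.5 and 92.5 in all arrays.

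Before E16 the 8 genes gave no call. Between E14 and E13 testis 0 of 8 passed by limma (0 at an unadjusted p under 0.05), beside 0.0693% of all probe sets in either direction. Between testis and ovary 0 of 8 passed at E14 (1 unadjusted, Hsd3b1), beside 0.139%, and 0 of 8 at E13 (2 unadjusted, Hsd3b1 and Cyb5a), beside 0.0126%. Amh, the Sertoli cell hormone, was higher in E14 than in E13 testis (log2 difference 2.82, adjusted p = 0.0119).

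Hsd3b1 was the gene that came closest to an early sex difference. Its log2 difference between testis and ovary was 1.26 at E13 (SE 0.42, adjusted p = 0.516) and 1.61 at E14 (SE 0.42, adjusted p = 0.262). The E14 testis arrays themselves disagreed, at 19.2 and 95.6. Without the lower of them, replicate 1, which is also one of the arrays with discordant Xist, the difference at E14 was 2.44. Over the 14 fits that each left out 1 array, this difference ranged from 0.77 to 2.44. Hsd3b1 passed at E14 with chip batch as a random block (1.85, adjusted p = 0.0466). Star ran the other way at E13, with a log2 difference between testis and ovary of -0.62 that did not pass (SE 0.35, adjusted p = 0.701).

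Between E14 and E16 the testis changed in 7 genes, Cyb5a being the exception again. Of the 8 genes, 7 were higher in E16 than in E14 testis, beside 0.12% of all probe sets, and 7 were higher in E16 than in E13 testis, beside 0.706%. The median of the 8 log2 differences was 3.30 against E14 and 3.12 against E13. These comparisons share the E16 testis arrays with that of the sexes.

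In the ovary 0 of 8 passed between E16 and E13 by limma (1 unadjusted, Star), beside 0.889% of all probe sets. Star read 36.1 and 19.3 in E16 ovary and 60.8 and 70.9 in E13 ovary, a log2 difference of -0.93 (SE 0.35, adjusted p = 0.348). Its second probe set read 13.7 and 4.5 at E16 and 32.9 and 62.0 at E13 (log2 difference -1.32, adjusted p = 0.0964). Both probe sets were lower at E16, and neither passed.

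The change of the sex difference with age was tested directly, as testis minus ovary at E16 less the same at E13. It passed in 4 of 8 genes, all towards testis, beside 0.0945% of all probe sets. The log2 differences were 6.09 for Cyp17a1 (SE 0.69, adjusted p = 0.00714), 5.25 for Hsd3b1 (SE 0.59, adjusted p = 0.00714), 3.93 for Cyp11a1 (SE 0.31, adjusted p = 0.00105) and 3.30 for Star (SE 0.50, adjusted p = 0.0361). Insl3 reached 4.59 (SE 0.80, adjusted p = 0.067), Fdx1 1.83 (SE 0.32, adjusted p = 0.067) and Scarb1 2.07 (SE 0.49, adjusted p = 0.21) without passing. Without the 4 arrays with discordant Xist 0 passed by limma (7 unadjusted). One array also moved the count: 1 gene, Cyp11a1, passed when replicate 2 of either E13 group was left out, and 2, Cyp11a1 and Cyp17a1, when E13 ovary replicate 1 or E16 testis replicate 2 was.

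**Figure D3:**
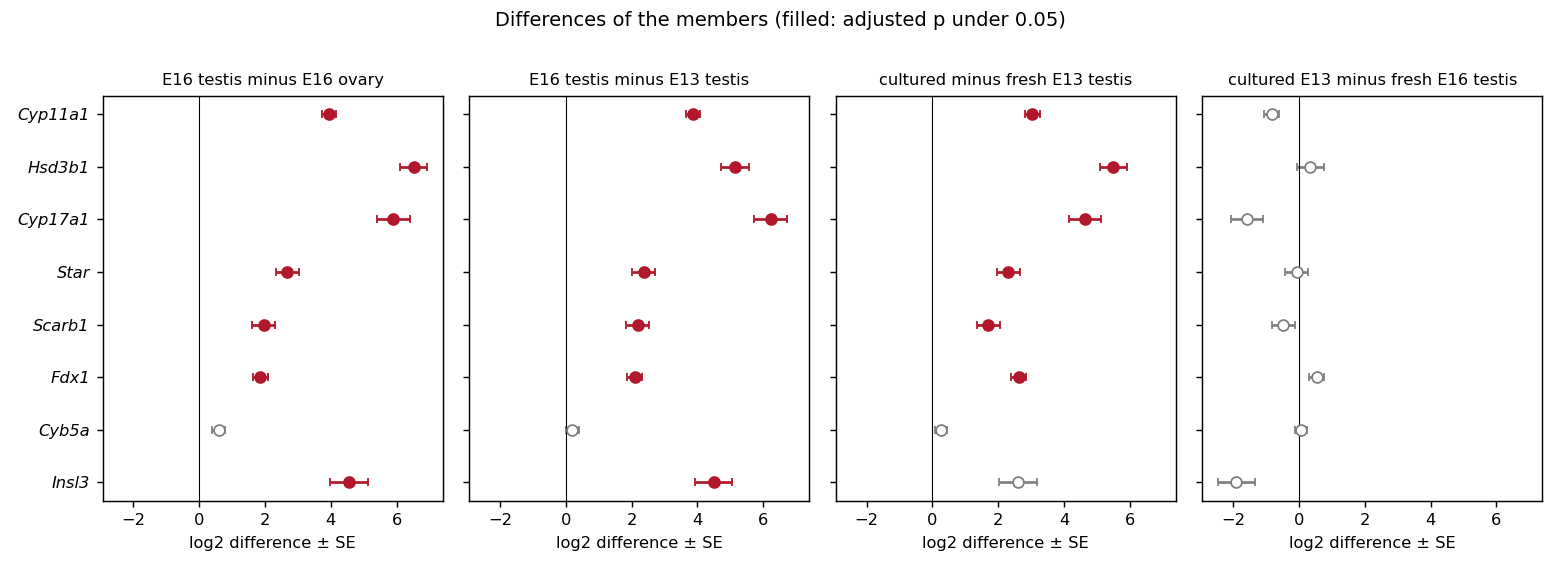
Log2 difference (± SE, log2(intensity + 16) scale) of the 8 genes in 4 comparisons; filled points have an adjusted p under 0.05. The enzymes and Star lie well right of 0 in E16 testis against ovary, in E16 against E13 testis and in cultured against fresh E13 testis, and on both sides of 0 in cultured E13 against fresh E16 testis.

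The arrays of the E16 testis did not read alike. All 8 genes were higher in replicate 2, by 1.14-fold (Cyb5a) to 3.07-fold (Insl3), while 49.9% of all probe sets were higher there. In the cultured testes 6 of 8 genes were higher in replicate 2, by up to 1.92-fold (Insl3), beside 52.3% of all probe sets. Chip batches were read from the arrays' own labels, and whether they match the hybridisation days is unknown. In the 1 batch with testis and ovary of E16, replicate 2 of each, the 7 genes differed by 2.04 (Fdx1) to 7.07 (Cyp17a1) on the log2 scale. The ovary array of this pair was one of the 4 with discordant Xist. Without E16 testis replicate 2, 6 of 8 genes still passed against ovary, Scarb1 being lost, and 4 of 8 passed against E13 and against E14 testis. Without E13 testis replicate 2, 4 of 8 passed between E16 and E13 testis, and without E14 testis replicate 2, 3 of 8 passed between E16 and E14 testis. Without the 4 arrays with discordant Xist 3 of 8 passed against E13 and against E14 testis, each time Cyp11a1, Hsd3b1 and Cyp17a1.

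Testes cultured from E13 also read high in most of the 8 genes. In cultured E13 testis 6 of 8 genes were higher than in fresh E13 testis, beside 1.06% of all probe sets. The log2 differences were 5.50 for Hsd3b1 (SE 0.42, adjusted p = 0.000211), 4.64 for Cyp17a1 (SE 0.49, adjusted p = 0.00106), 3.04 for Cyp11a1 (SE 0.22, adjusted p = 0.000207), 2.63 for Fdx1 (SE 0.23, adjusted p = 0.00045), 2.31 for Star (SE 0.35, adjusted p = 0.00952) and 1.70 for Scarb1 (SE 0.35, adjusted p = 0.0391). Insl3 did not pass, at 2.60 (SE 0.57, adjusted p = 0.0527), nor did Cyb5a, at 0.26 (SE 0.19, adjusted p = 0.646). In 8 of 8 genes both cultured arrays lay above both fresh ones, as in 19.8% of all probe sets, and the median log2 difference was 2.62.

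The calls were repeated with arrays left out. Without cultured replicate 2, which had a high actin ratio, or without both arrays with a high actin ratio, 4 of 8 genes passed against fresh E13 testis (Star and Scarb1 lost), and without cultured replicate 1, which had discordant Xist, 5 of 8 (Scarb1 lost). Without fresh E13 testis replicate 2, 4 of 8 passed. Without all 4 arrays with discordant Xist only Hsd3b1 passed (log2 difference 5.71, adjusted p = 0.0105), while Cyp11a1 differed by 2.89 (adjusted p = 0.0761) and Cyp17a1 by 5.43 (adjusted p = 0.07). Against fresh E14 testis, 6 of 8 genes were higher in culture, beside 0.271% of all probe sets, and Insl3 again did not pass (log2 difference 2.68, adjusted p = 0.109). Without the 2 arrays with a high actin ratio 4 of 8 passed there (Star and Scarb1 lost), and without the 4 with discordant Xist 1, Hsd3b1.

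Whether culture brought the testis to the level of its age was asked by setting it against fresh E16 testis. Here 0 of 8 genes passed by limma (4 at an unadjusted p under 0.05), beside 0.0945% of all probe sets in either direction. At the unadjusted threshold, 571 of all 15866 probe sets were higher and 488 lower. Insl3 read 175 and 336 in cultured testis, against 540.0 and 1659 in fresh E16 testis (log2 difference -1.90, SE 0.57, adjusted p = 0.5). Cyp17a1 differed by -1.58 (SE 0.49, adjusted p = 0.512) and Cyp11a1 by -0.83 (SE 0.22, adjusted p = 0.382). Fdx1 went the other way, with 1394 and 1456 in culture and 766 and 1240.1 at E16 (log2 difference 0.54, SE 0.23, adjusted p = 0.72).

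These directions can be read within chip batches, since replicate 1 of both groups shared a batch and replicate 2 of both another. In the 2 pairs the log2 difference of cultured minus E16 testis was -1.54 and -2.25 for Insl3, -1.46 and -1.71 for Cyp17a1, -0.33 and -1.33 for Cyp11a1, and 0.85 and 0.23 for Fdx1. Hsd3b1 gave 0.50 and 0.21, Star 0.06 and -0.18. With 2 arrays a group these differences fell short of the threshold, which does not show that cultured and fresh E16 testis were alike.

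Markers of the adrenal cortex, a tissue that shares the first steps of this pathway and lies close to the gonad in the fetus, moved with culture. Cyp11b1, which makes corticosterone, read 333 and 190.0 in cultured E13 testis, 24.8 and 21.8 in fresh E13 testis, and 11.9 and 15.3 in E16 testis. Cyp21a1, the 21-hydroxylase, read 155 and 142 in cultured E13 testis, 24.8 and 7.9 in fresh E13 testis, and 10.1 and 7.6 in E16 testis. Akr1b7, an aldose reductase relative abundant in adrenal cortex, read 179 and 102 in cultured E13 testis, 54.5 and 22.5 in fresh E13 testis, and 10.1 and 18.4 in E16 testis. For all 3 markers both cultured arrays lay above the other 12.

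Cultured testis exceeded fresh E13 testis in Cyp11b1 (log2 difference 2.77, SE 0.27, adjusted p = 0.0008) and Cyp21a1 (2.39, SE 0.29, adjusted p = 0.00231), while Akr1b7 did not pass (1.54, adjusted p = 0.0601). It exceeded fresh E16 testis in 3 of 3, by 3.18 for Cyp11b1 (adjusted p = 0.000851), 2.73 for Cyp21a1 (adjusted p = 0.00416) and 2.34 for Akr1b7 (adjusted p = 0.0447). Of the 8 adrenal cortex markers listed, 3 were measured, and their summed intensity was 434 to 667 in cultured E13 testis, 52.2 to 104 in fresh E13 testis and 32.1 to 41.3 in E16 testis. None of the 3 was at 0 on any array. Hsd3b2, also on that list, had no probe set under its symbol alone, and the Hsd3b1 probe set may report it. That probe set was high in E16 testis as well, at 1432 and 2202.5. In the mouse, cells of the fetal testis itself can also express Cyp21a1 and Cyp11b1. Both the steroidogenic genes and these markers were high in the cultured arrays, and the part of adrenal cells in the cultured values was not tested. In E16 testis, where 7 of the 8 genes were higher than in ovary, 0 of the 3 markers passed against E16 ovary by limma (0 unadjusted), and the sum in E16 ovary was 27.3 to 32.6.

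**Figure D4:**
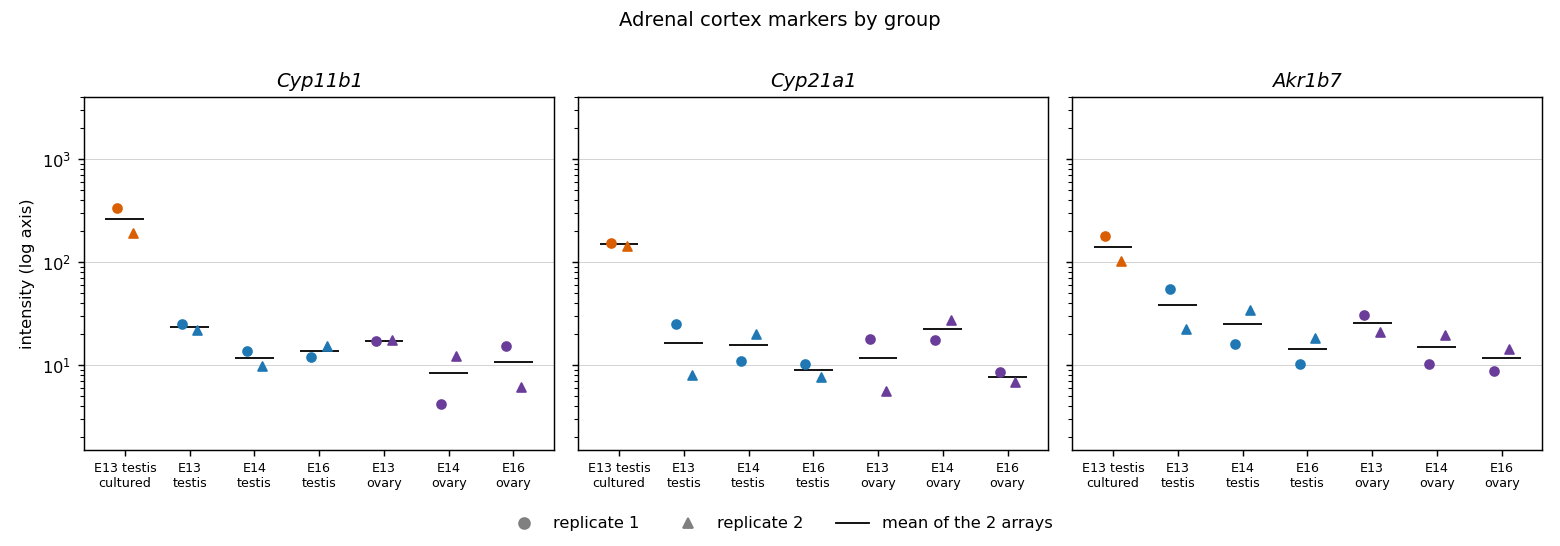
Intensity (log axis) of the 3 measured adrenal cortex markers in the 7 groups; circles are replicate 1, triangles replicate 2, lines the mean of the 2 arrays. Only the cultured E13 testis arrays are high, at 190.0 and 333 for Cyp11b1, and E16 testis lies in the range of the ovaries.

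Markers of other cell types of the testis changed alongside. Of 5 measured Sertoli cell markers, 4 were higher in E16 testis than in E16 ovary (Amh, Aard, Cst8 and Inha), with summed intensities of 3050.2 to 3088 and 656 to 729, and 5 were higher in cultured than in fresh E13 testis, with sums of 2825 to 3649 and 520.0 to 634. Of 4 smooth muscle and peritubular markers, Acta2 and Tagln were higher in E16 testis than in E16 ovary, with sums of 641 to 903 and 218 to 302. Lyz2, 1 of 5 macrophage markers, was higher in cultured than in fresh E13 testis (log2 difference 1.14, adjusted p = 0.0313), with sums of 391 to 467 and 196 to 246. At an unadjusted p under 0.05 by limma there were 4 of the 5 in that comparison. In E16 testis against ovary there were 3, of which 0 passed. The 2 measured red blood cell genes did not pass (0 unadjusted in these comparisons) and summed to 4682 to 7440 in E16 testis, against 4065 to 5850 in E16 ovary, and to 159 and 2600 in the 2 cultured arrays, against 133 to 209 in fresh E13 testis. In the same comparisons 0 of 5 measured markers of adrenal medulla and neuron passed by limma (3 unadjusted in cultured against fresh E13 testis, 1 in E16 testis against ovary), with sums of 213 to 357 in cultured and 147 to 164 in fresh E13 testis. Of the markers of endothelium (3 measured), liver (4), mesonephros and kidney (3) and germ cell (1), 0 passed (1 endothelial and 1 liver marker unadjusted, both in E16 testis against ovary). The part of these marker transcripts' changes in the differences of the steroidogenic genes was not tested.

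Around the 8 genes, a list of 44 further genes of steroid synthesis, cholesterol supply and Leydig cell control was followed, of which 33 were measured. Between E16 testis and E16 ovary 4 of 33 were higher and 0 lower, and the median log2 difference was 0.16, beside 0.05 over all probe sets. Hsd17b3, which makes testosterone from androstenedione in the adult rodent testis, read 158 and 146 in E16 testis and 23.1 and 26.5 in E16 ovary (log2 difference 2.04, SE 0.33, adjusted p = 0.0105). Lhcgr, the receptor of luteinizing hormone, read 104 and 181 in E16 testis and 23.1 and 35.4 in E16 ovary (1.78, SE 0.29, adjusted p = 0.0117). Its dimmer probe set did not pass (0.77, adjusted p = 0.425).

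The other 2 genes were Hsd11b2, which inactivates glucocorticoid, and Nr2f2, a nuclear receptor of interstitial progenitor cells. Hsd11b2 read 243 and 195 in E16 testis and 83.5 and 73.7 in E16 ovary (log2 difference 1.31, SE 0.24, adjusted p = 0.0198). Nr2f2 read 846 and 654 in E16 testis, against 389.7 and 229.6 in E16 ovary (1.27, SE 0.27, adjusted p = 0.0406). Nr2f2 was also lower in E16 than in E13 ovary (-1.34, adjusted p = 0.0464), and did not pass between E16 and E13 testis (0.02, adjusted p = 0.953). Its second probe set passed between the sexes at E16 (2.42, adjusted p = 0.0151) and missed between E16 and E13 ovary (-2.0, adjusted p = 0.0546).

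By brightest probe set, Hsd17b3 alone of the same 33 genes was higher in E16 than in E13 testis (log2 difference 1.74, adjusted p = 0.0334). It read 49.6 and 22.7 at E13. Hsd17b7 passed there by its other probe set, with means of 74.0 at E16 and 25.0 at E13 (1.13, adjusted p = 0.0129). Nr0b1, the repressor DAX1 that counters SF-1, was lower in E16 than in E13 ovary, at 31.3 and 59.4 against 144 and 162 (log2 difference -1.50, adjusted p = 0.024). In testis it read 72.2 and 60.5 at E16 and 168 and 182 at E13, and did not pass (-1.21, adjusted p = 0.0538). Its log2 difference between the sexes at E16 was 0.46 (adjusted p = 0.489).

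In cultured against fresh E13 testis 0 of the 33 passed by limma (16 at an unadjusted p under 0.05, 13 of them higher). At that unadjusted threshold, 1168 of all 15866 probe sets were higher and 790 lower. By their other probe sets Hsd17b7 (1.18, adjusted p = 0.0089) and the prolactin receptor Prlr (1.75, adjusted p = 0.0391) did pass. The median log2 difference of the list was 0.23. Hsd11b2 reached 1.09 (SE 0.24, adjusted p = 0.0527), Hsd17b3 1.24 (SE 0.33, adjusted p = 0.117) and Lhcgr 0.72 (SE 0.29, adjusted p = 0.331). Against fresh E16 testis, Akr1b7 of the adrenal list was the 1 that passed.

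Nr5a1, Por and Tspo did not pass by their brightest probe sets in any of the 13 comparisons. Nr5a1, the gene of SF-1, read 33.6 and 30.1 in E16 testis and 1.3 and 27.9 in E16 ovary (log2 difference 0.80, SE 0.55, adjusted p = 0.598), and its 2 cultured arrays read 54.1 and 2.9. The arrays of a group differed widely for this dim probe set. Por, the reductase that feeds Cyp17a1, read 117 and 139.5 in E16 testis and 61.2 and 64.9 in E16 ovary (0.86, SE 0.24, adjusted p = 0.131). Tspo, an outer mitochondrial membrane protein, read 174 and 203 in E16 testis and 271 and 251 in E16 ovary (-0.44, SE 0.18, adjusted p = 0.315). Fdxr, the reductase that feeds Fdx1, was on the list and not analysed here. The other listed genes that were measured and did not pass in any of the 13 comparisons by their brightest probe sets were Hsd17b1, Hsd17b4, Hsd17b7, Hsd17b12, Cyp19a1, Dbi, Stard3, Scp2, Soat1, Lipe, Npc2, Nr4a1, Gata4, Gata6, Hsd11b1, Prlr, Pdgfra, Sult1e1, Cbr1, Creb1, Crem, Cyp51, Dhcr7 and Sqle.

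**Figure D5:**
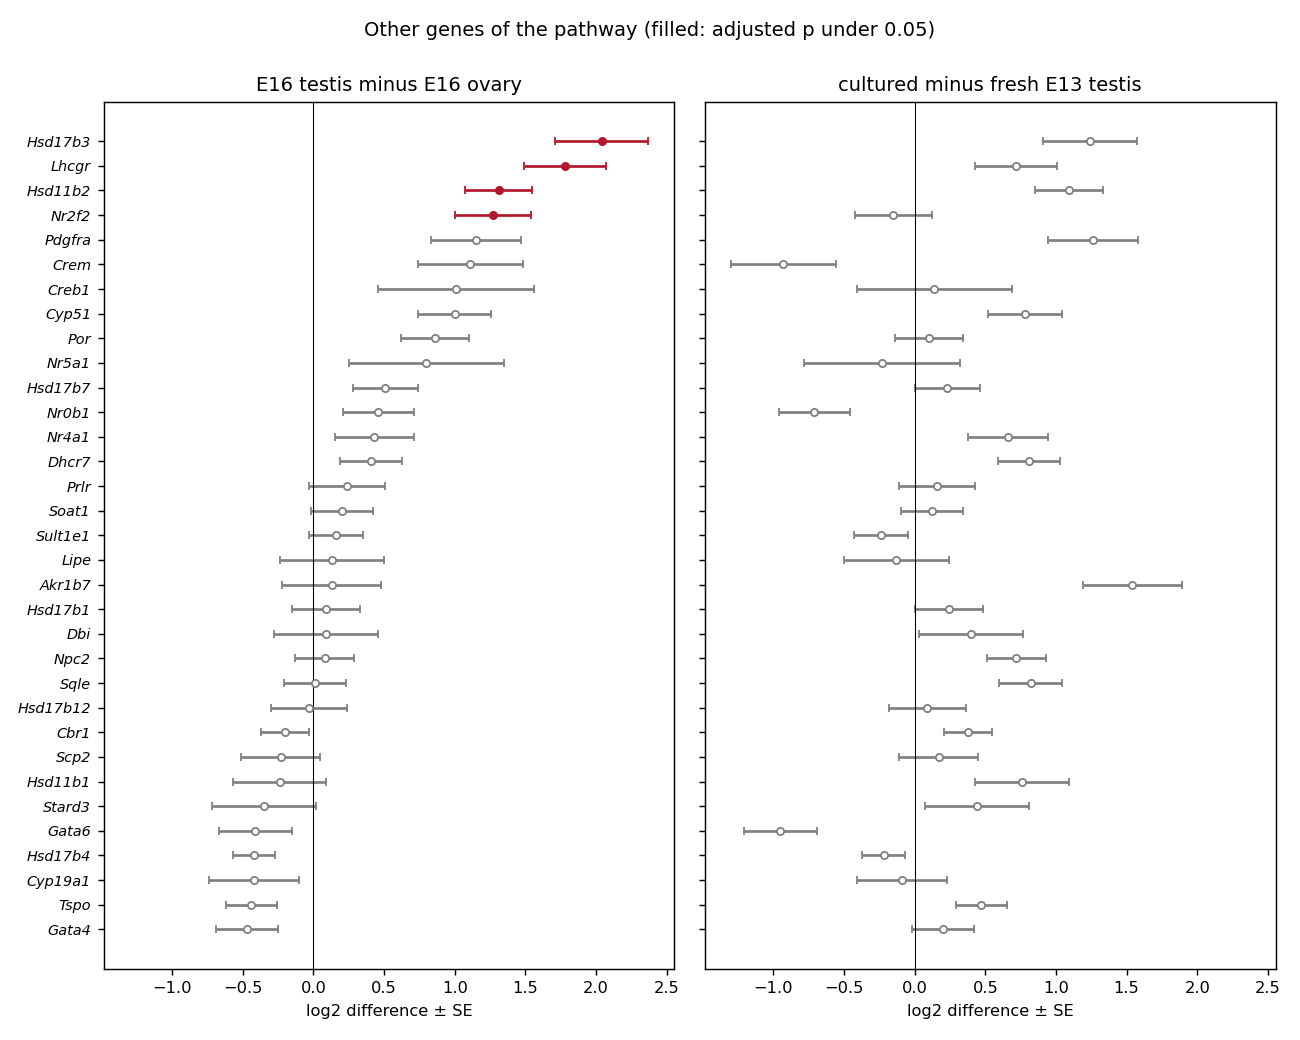
Log2 difference (± SE, log2(intensity + 16) scale) of the 33 further genes measured, in E16 testis against E16 ovary (left, ordered by this difference) and in cultured against fresh E13 testis (right); filled points have an adjusted p under 0.05. Hsd17b3, Lhcgr, Hsd11b2 and Nr2f2 are filled on the left and none on the right.

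The 8 genes followed one another over the arrays, Cyb5a least closely. Between pairs, Pearson's r over the 14 arrays was 0.68 (Cyb5a with Insl3) to 0.98 (Cyp11a1 with Cyp17a1). The same 4 arrays lay above the other 10 throughout, but for Cyb5a the gap was narrow, 289.6 against 276.2. Against the mean profile of the 8 genes, r was 0.823 for Cyb5a and 0.991 for Cyp11a1, the ends of their range by brightest probe set. The same measure was taken for 6342 probe sets with 1 symbol and a mean of at least 100 in some group. These values describe arrays that share groups and chips, and no test goes with them.

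The 10 genes beside the 8 with the most similar profile were Plbd1 (r = 0.945), Htr7 (0.938), Foxs1 (0.934), Jag1 (0.918), Inha (0.918), Bok (0.910), Ada (0.909), Tmem120a (0.904), Pfkp (0.900) and Sfrp4 (0.897). Plbd1, a phospholipase B relative, read 209 and 247 in cultured E13 testis, 41.6 and 44.4 in fresh E13 testis, 98.1 and 179 in E16 testis, and 31.5 and 32.8 in E16 ovary. Jag1, a ligand of Notch receptors, read 129 and 87.3 in cultured E13 testis, 28.2 and 13.1 in fresh E13 testis, 126 and 109.5 in E16 testis, and 26.2 and 16.5 in E16 ovary. Inha, the inhibin alpha subunit and one of the Sertoli cell markers above, read 492 and 626 in cultured E13 testis, 149 and 115 in fresh E13 testis, 285 and 414.5 in E16 testis, and 67.0 and 91.3 in E16 ovary. High values in cultured and E16 testis are what the genes were chosen for, and no test of them is given.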

How the data were processed

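RNA of 14 gonad pools was hybridised to single-colour Affymetrix rat arrays, and the intensity values are as the authors deposited them, with a trimmed mean (2% off each end) of 125 on every array. The software that summarised the probes is not given in the sources used here, nor are detection calls. After removal of 57 control probe sets, 15866 were fitted as log2(intensity + 16) with limma 3.58.1 in R 4.3.3, with a mean for each of the 7 groups and all 14 arrays sharing one estimate of spread (7 residual degrees of freedom). Benjamini-Hochberg adjustment ran over all probe sets within each of 13 comparisons, and 0.05 was the threshold. Pools of a group are independent per the labels. A gene with several probe sets is represented by the brightest over all arrays. Names come from the platform annotation, in which 12783 probe sets carry 1 symbol, 312 several and 2771 none; only those with 1 were named. Beside the 8 genes, the text names the pathway genes that passed in any comparison, Nr5a1, Lhcgr, Fdxr, Por and Tspo in any case, cell type markers that touch a result, and the 10 genes closest in profile; Hsd17b7 and Prlr were named after their values were seen. The members and lists were chosen with earlier results of these data known. The fitting script was tested on simulated data. Alternatives were the offset, quantile normalization, a filter on dim probe sets, the arrays fitted, chip batch or period, the replicate number as a block, and each array left out in turn.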

Additional observations from a re-analysis of the deposited data

Results flagged for a closer look

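In 4 of the 8 genes the difference between testis and ovary was itself different at E16 and at E13, by limma's test of that difference across all probe sets. It was larger at E16 by 6.09 on the log2 scale for Cyp17a1 (adjusted p = 0.00714), by 5.25 for Hsd3b1 (adjusted p = 0.00714), by 3.93 for Cyp11a1 (adjusted p = 0.00105) and by 3.30 for Star (adjusted p = 0.0361). With 2 arrays a group, no test for a single outlying array was made.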

How the results depend on the processing

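No called difference of the 8 genes changed direction under any alternative run. Fitted on the compared groups alone, 2 genes passed in E16 testis against ovary (Cyp11a1 and Hsd3b1), 3 in E16 against E13 testis, 1 in E16 against E14 testis (Cyp17a1) and 3 in cultured against E14 testis. Without the 4 arrays with discordant Xist, 3 passed in E16 testis against ovary, against E13 testis and against E14 testis, 1 in cultured against fresh E13 and against E14 testis, and 0 for the change of the sex difference by limma (7 unadjusted). Without the 2 arrays with a high actin ratio, 6 passed in E16 testis against ovary and 4 in cultured against fresh E13 and against E14 testis. An offset of 1 left 4 in E16 against E14 testis and 1 for the change of the sex difference. Chip period or chip batch as a block gave 1, Hsd3b1, between the sexes at E14. Leaving out single arrays gave 6 to 7 in E16 testis against ovary, 4 to 7 against E13 testis, 3 to 7 against E14 testis, 4 to 7 in cultured against fresh E13 testis, 4 to 6 in cultured against E14 testis, 1 to 6 for the change of the sex difference and 0 to 1 between the sexes at E14. In cultured against fresh E13 testis, Scarb1 passed in 6 of these 14 fits and Insl3 in 4. Same-numbered arrays correlated between groups at -0.05 to 0.53 in their deviations, and some share an inferred chip batch. Not every pair was above 0.1, so the numbers were not taken to pair the samples, and the replicate block changed no count or call of the 8 genes, giving 7 in E16 testis against ovary and an adjusted p of 0.199 for Hsd3b1 between the sexes at E14. Dim probe sets have no detection call, and their differences are understated by the offset.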
